A study of Homo sapiens with 6 samples.

Results

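The keratin family was examined in RNA-seq libraries of pancreatic ductal adenocarcinoma (PDAC) cells in which the retinoic acid receptor RARγ was blocked. Members were all entries whose symbol is KRT followed by a number and, for some, a letter A, B or C, which leaves out pseudogenes and the keratin-associated proteins. There were 55 such genes among the 53826 entries of each library, no symbol was repeated, and all 55 Entrez gene IDs were found in the RefSeq table. The set holds 29 type I and 26 type II keratins. The study sequenced 6 cultures and made a single library of each. PK-1 and Panc-1 are established human PDAC cell lines that both carry altered CDKN2A, whereas SMAD4 is altered in PK-1 and not in Panc-1. In each line there were a control, a culture given the RARγ antagonist LY2955303 (called RARγi-1) and a culture given MM11253 (called RARγi-2), an antagonist with another structure, both for 24 h. For both RARγi-2 libraries the treatment field names RARγi-1, and these libraries were assigned by their titles. Neither dose nor vehicle is given for these cultures in the sources used here, so the values of the inhibitors are set side by side without a test between them.

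Keratins are the intermediate filament proteins of epithelial cells. A filament is built from pairs of 1 acidic type I and 1 basic type II keratin, and neither type forms a filament alone. Which pairs a cell makes follows its epithelium. Single-layered epithelia such as the pancreatic duct use KRT8 with KRT18, together with KRT7 and KRT19. The basal layer of stratified epithelia uses KRT5 with KRT14, the upper layers of the oesophagus use KRT4 with KRT13, and wounded or rapidly growing squamous epithelium adds KRT6 forms with KRT16 and KRT17. Squamous keratins in PDAC are therefore followed as marks of a squamous phenotype, and the study used KRT13 as a readout of RARγ signaling.

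The authors deposited log2 TPM, where TPM are corrected for transcript length and add up to the same number in each library, and lower values were set to 1 TPM. A member at 1 TPM or less is called at the floor here. Fold changes are log2 differences of (TPM + 1) between a treated culture and the control of its line. The words rose and fell are used for changes of more than 2-fold. There were no replicates, hence replicate error is unknown and p-values were not computed. In its place a robust standard deviation of the difference between the inhibitors within a line is used and called the spread. It also holds real differences between the inhibitors. No control library enters the difference, so the spread does not measure the error of a control or of a comparison between lines. Among entries that reached 5 TPM, the spread was 0.41 log2 units for PK-1 and 0.32 for Panc-1. TPM values keep no read number, so the depth is unknown. Between 13149 and 13652 entries per library lay above the floor. Median ratio rescaling moved the log2 fold changes of PK-1 with RARγi-1 by -0.11 and all others by less. In bulk RNA, fewer cells with a keratin and less of its mRNA per cell cannot be told apart.

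The lines were first checked against epithelial genes. All 6 listed epithelial markers were above the floor in the 3 PK-1 libraries, with sums of 1968 to 3056 TPM. In Panc-1, 3 or 4 of the 6 were above it, with sums of 108 TPM in the control and 214 and 189 TPM with the inhibitors, and CDH1, which encodes E-cadherin, and ST14 were at the floor throughout. Of 7 fibroblast genes, 1 was above the floor in PK-1, at 3.21 to 13.4 TPM, and at most 2 in Panc-1, with sums of 63.4 TPM in the control and 5.99 and 2.10 TPM with the inhibitors. Of 6 leukocyte genes, 2 or 3 were above it, with sums of 24.0 to 282 TPM, most of it CD68, a lysosomal gene, and PTPRC and CD3E were at the floor. None of 4 endothelial genes was above the floor. Of 4 acinar genes, PRSS1 alone was above it, in PK-1 at 1.06 TPM in the control and 11.1 and 21.2 TPM with the inhibitors. The part of these markers in the keratin results was not tested.

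Of the 55 keratins, 20 were above the floor in at least 1 library, 10 of each type. The other 35 were at the floor in all 6. PK-1 had 19 detected members and Panc-1 had 9, of which 8 were found in both lines. Detection differed by role. Of the 6 keratins of simple epithelia, 5 were detected, and KRT20, a keratin of intestinal and gastric epithelium, was not. All 3 basal layer keratins and all 5 activation-associated keratins were detected, in Panc-1 only KRT15 and KRT16 of these. Of the 6 keratins of squamous mucosa and cornea, KRT13, KRT4 and KRT78 were detected in PK-1 and none in Panc-1. Among 5 epidermal suprabasal keratins only KRT10 was detected, and KRT1, its usual partner, was at the floor. All 9 keratins of the inner root sheath and companion layer of the hair follicle were at the floor. Of 17 hair and nail keratins, KRT40 reached 1.75 TPM in the PK-1 control and KRT86 1.08 TPM in the Panc-1 control.

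**Figure D1:**
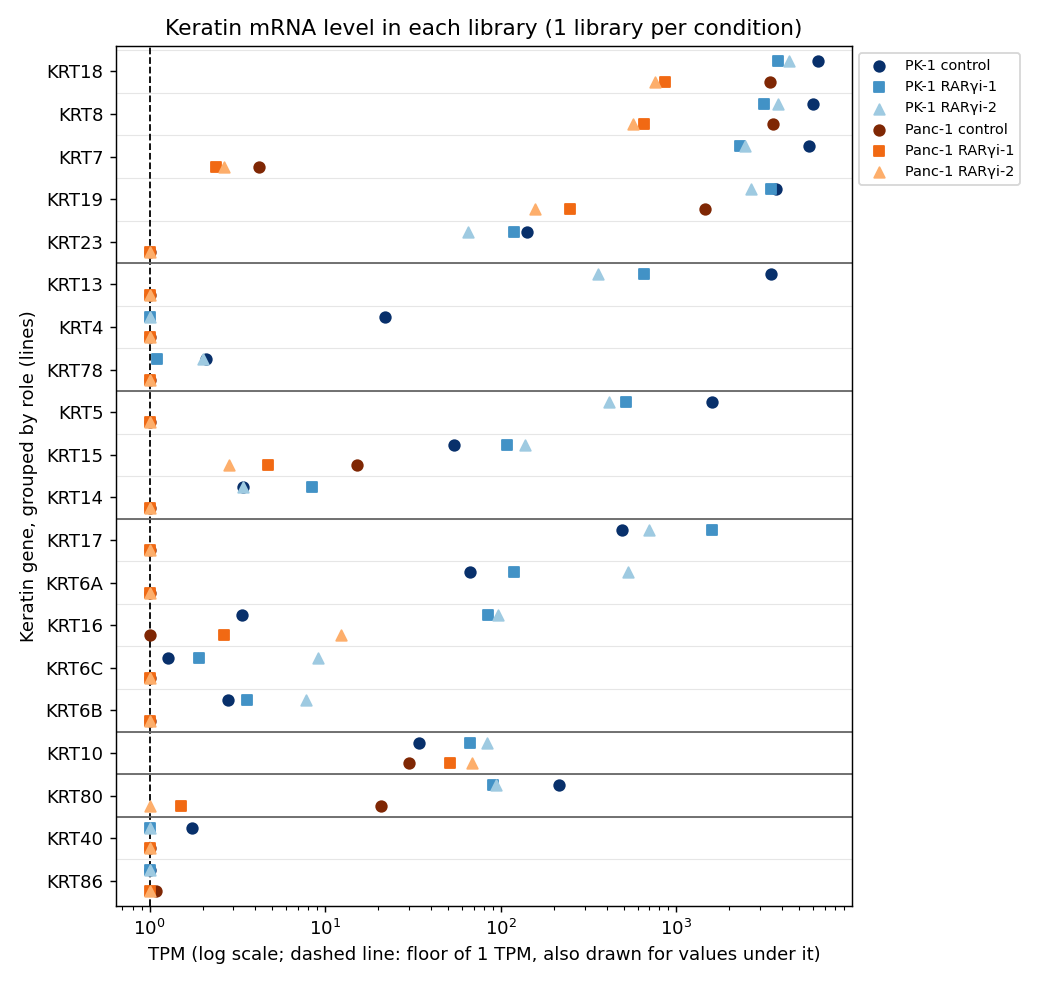
Level in TPM, on a log axis, of the 20 detected keratins in each of the 6 libraries, with PK-1 libraries in blue and Panc-1 libraries in orange; the dashed line is the floor of 1 TPM, where undetected values are also drawn, and horizontal lines separate the roles. KRT18 and KRT8 lie between 3149.5 and 6408 TPM in PK-1, whereas KRT13, KRT5 and KRT17 lie at the floor in every Panc-1 library.

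The untreated lines were compared next. Relative to the PK-1 control, 12 of the 20 members above the floor in either control were lower by more than 2-fold in the Panc-1 control and none was higher. Over all 14618 entries above the floor in either control, 14.6% were lower and 15.7% higher by this measure. The median log2 fold change of the members was -1.24, against 0.03 over all entries. KRT7, a type II duct keratin, stood at 5663 TPM in the PK-1 control and at 4.19 TPM in the Panc-1 control, and so differed although neither value was at the floor. KRT13 was at 3457 TPM, KRT5 at 1591 TPM and KRT17 at 487 TPM in the PK-1 control, and all of them were at the floor in Panc-1. The other members that were lower were KRT80, KRT6A, KRT4, KRT23, KRT15, KRT19, KRT14 and KRT16. KRT8 and KRT18 differed by less than 2-fold, with log2 fold changes of -0.76 and -0.91. KRT10 was nearly level between the controls, with 34.2 TPM for PK-1 against 29.9 TPM for Panc-1, a log2 fold change of -0.19. In the PK-1 control KRT18, KRT8 and KRT7 ranked 7, 9 and 10 among all entries, and in the Panc-1 control KRT8 and KRT18 ranked 23 and 24.

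To see how much keratin mRNA the cells held in all, TPM were summed over the family. For PK-1 the sum was 27831 TPM in the control and 16043 and 15736 TPM under RARγi-1 and RARγi-2, which is 1.73-fold and 1.77-fold lower. For Panc-1 it was 8471 TPM in the control and 1824 and 1559 TPM under the inhibitors, which is 4.64-fold and 5.43-fold lower. Of the total that TPM have by definition, keratins thus took 2.78% in the PK-1 control and 0.156% in Panc-1 with RARγi-2. Simple epithelial keratins made up 78.7% of keratin TPM in the PK-1 control and 99.2% in the Panc-1 control. The make-up shifted in PK-1. Squamous mucosa keratins went from 12.5% of keratin TPM in the control to 4.09% with RARγi-1 and 2.29% with RARγi-2, and activation-associated keratins from 2.02% to 11.2% and 8.48%. Type I over type II TPM was 1.06 in the PK-1 control, 1.60 with RARγi-1 and 1.15 with RARγi-2. In Panc-1 the same ratio was 1.38, 1.77 and 1.74.

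**Figure D2:**
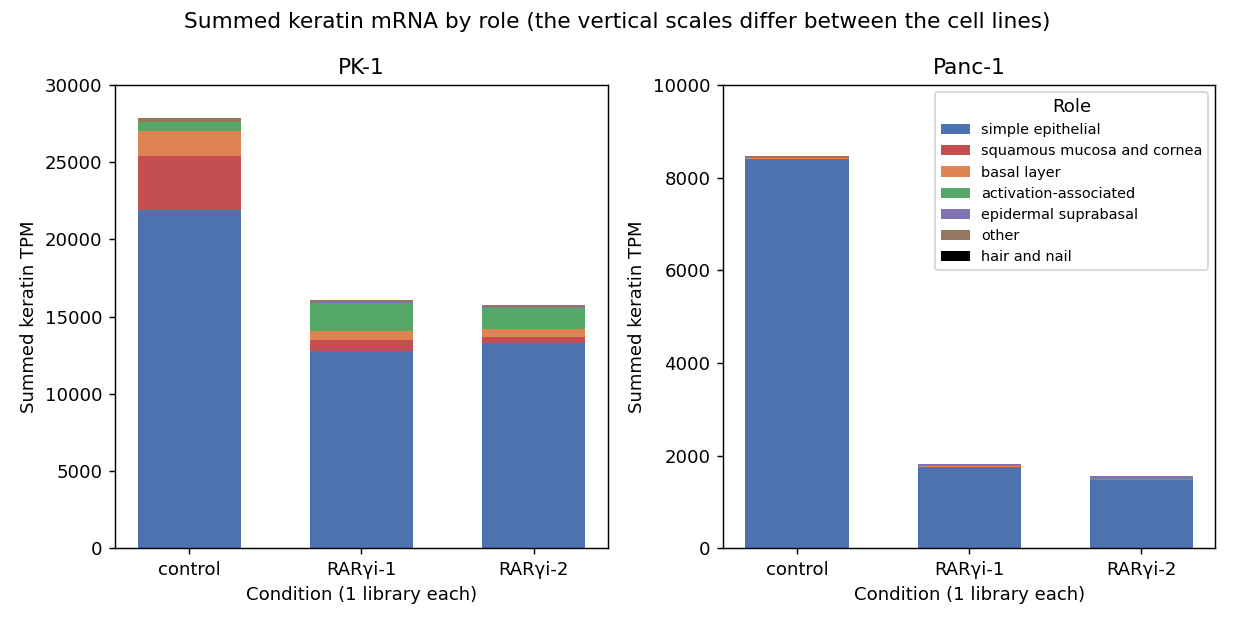
Summed TPM of the keratins in each library, stacked by role, with PK-1 on the left and Panc-1 on the right on a smaller vertical scale. The PK-1 control bar reaches 27831 TPM and holds a visible share of squamous mucosa keratins that shrinks with both inhibitors, while the Panc-1 bars are nearly all simple epithelial keratin and drop from 8471 TPM to 1824 and 1559 TPM.

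Each inhibitor was then compared with the control of its line. In PK-1 with RARγi-1, 3 of 19 members rose and 5 fell, against 9.25% of all tested entries that rose and 4.96% that fell. In PK-1 with RARγi-2, 6 of 19 rose and 6 fell, against 12.1% and 12.6% of entries. In Panc-1 with RARγi-1, 5 of 9 fell and none rose, against 6.03% and 7.4% of entries. In Panc-1 with RARγi-2, 5 of 9 fell and 2 rose, against 11.2% and 8.5% of entries. The members that fell in Panc-1 were KRT80, KRT8, KRT18, KRT15 and KRT19 in each comparison. Members above the floor in either of the libraries compared were counted, and since 1 control serves both inhibitors of a line, the counts within a line are not independent. The median log2 fold change of the members in PK-1 was -0.25 under RARγi-1 and -0.46 under RARγi-2, against 0.15 and 0.03 over all entries. In Panc-1 it was -1.50 and -2.07, against 0.09 and -0.03. In PK-1 the family therefore split, with single members from -3.51 to 4.48, whereas in Panc-1 most detected members were lower.

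**Figure D3:**
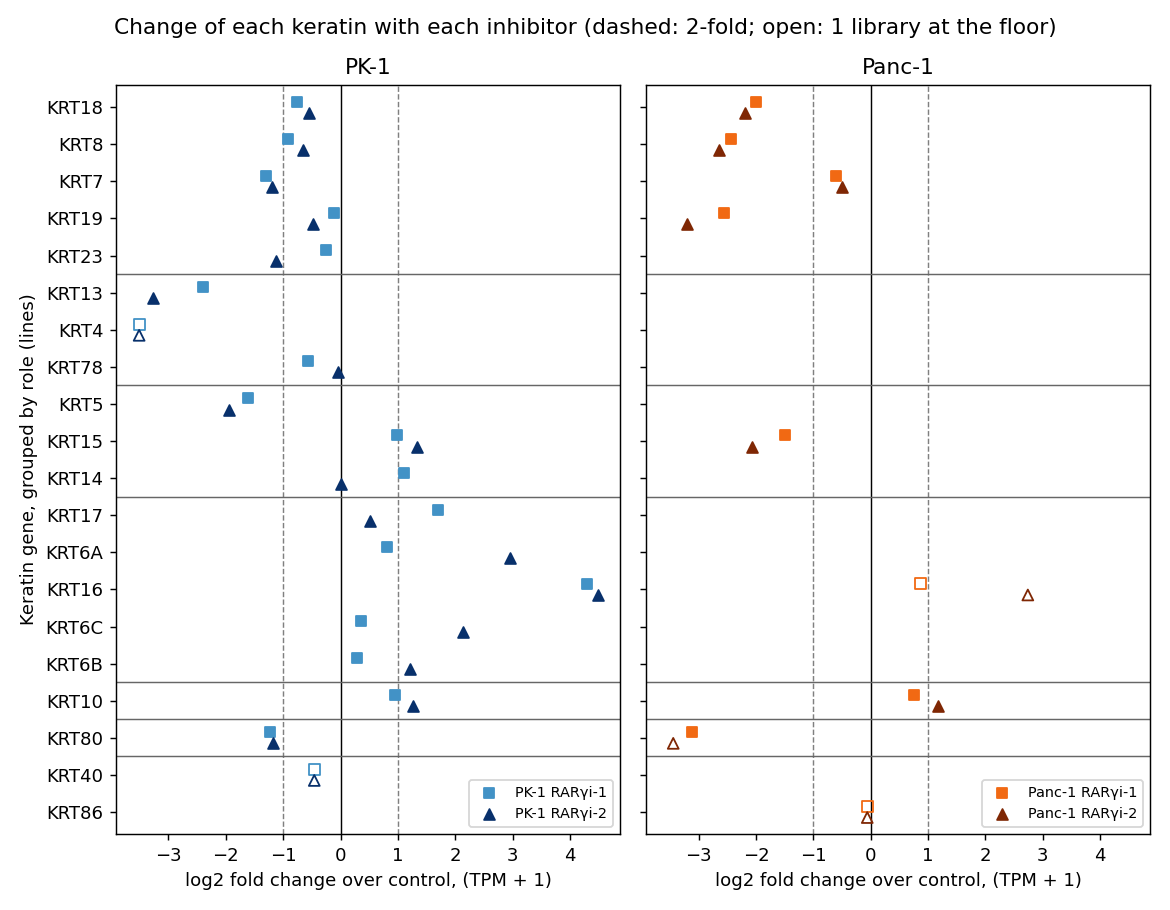
Log2 fold change of (TPM + 1) over the control of the line for the 20 detected keratins, with squares for RARγi-1 and triangles for RARγi-2; dashed lines mark 2-fold, and open symbols mark a comparison in which 1 library was at the floor. KRT16 and KRT10 lie right of 0 in both lines, KRT80, KRT8, KRT18 and KRT19 lie left of 0 in both lines, and KRT15 lies right of 0 in PK-1 and left of it in Panc-1.

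The simple epithelial pair KRT8 and KRT18 was lower with both inhibitors, by less than 2-fold in PK-1 and by more than 2-fold in Panc-1. The difference between the lines was not tested. KRT18 (Entrez gene 3875) stood at 6408 TPM in the PK-1 control and at 3792 and 4350.1 TPM with RARγi-1 and RARγi-2. KRT8 (Entrez gene 3856), its type II partner, stood at 5967 TPM in the PK-1 control and at 3149.5 and 3779 TPM with the inhibitors. These differences stayed under 2-fold, with log2 fold changes of -0.76 and -0.56 for KRT18 and -0.92 and -0.66 for KRT8, but were larger than the spread. After rescaling, KRT8 with RARγi-1 was past 2-fold, at -1.03. In Panc-1 the same genes fell. KRT18 went from 3415 TPM to 859 and 750.2 TPM, log2 fold changes of -1.99 and -2.19. KRT8 went from 3530.4 TPM to 656 and 566 TPM, log2 fold changes of -2.43 and -2.64. The ranks of KRT18 and KRT8 among all entries were 143 and 198 with RARγi-1, and 180 and 251 with RARγi-2.

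KRT19 (Entrez gene 3880), the smallest keratin and a common marker of duct cells, fell in Panc-1 and stayed within 2-fold in PK-1. In PK-1 its control level was 3711 TPM, against 3446 TPM under RARγi-1, which is within the spread, and 2646 TPM under RARγi-2. In Panc-1 it went from 1454 TPM to 247 and 157 TPM, log2 fold changes of -2.55 and -3.21. KRT7 (Entrez gene 3855) fell in PK-1 from 5663 TPM to 2297 and 2470.4 TPM, log2 fold changes of -1.30 and -1.20. In Panc-1 it was near the floor in all libraries, at 4.19, 2.40 and 2.67 TPM. KRT23 (Entrez gene 25984), a type I keratin found in PK-1 alone, was at 141 TPM in the control and 119 TPM with RARγi-1, within the spread, and fell to 64.6 TPM under RARγi-2, a log2 fold change of -1.12.

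The largest decreases in PK-1 with both inhibitors were those of KRT13 and KRT4, keratins of squamous mucosa. KRT13 (Entrez gene 3860), a type I keratin of the oesophagus and other moist stratified epithelia, had a level of 3457 TPM in the PK-1 control, 655 TPM under RARγi-1 and 358 TPM under RARγi-2. The log2 fold changes were -2.40 and -3.27, several times the spread. KRT4 (Entrez gene 3851), its type II partner, was at 21.8 TPM in the control and at the floor with both inhibitors, so its decrease was at least 21.8-fold. KRT4 mRNA was thus far less abundant than KRT13 mRNA, which stood 159-fold above it in the control. KRT78 stayed near the floor, between 1.09 and 2.11 TPM. The study measured KRT13 in PK-1 by RT-PCR and Western blotting as well. It reported that RARγi-1 lowered both its mRNA and its protein. The primers of the RT-PCR assay are shown because they tell which part of the mRNA the readout covers. In GENCODE 29, 5 transcripts, all of KRT13, matched at least 1 of the primers. Both matched the longest coding transcript of KRT13, with a product of 162 bases that spans its bases 954 to 1115.
KRT13 forward: ctgaacaaggaggtgtctacca
KRT13 reverse: atagcggcactccgtctct

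Basal layer keratins did not move as 1 group. KRT5 (Entrez gene 3852), the type II basal keratin, fell in PK-1 from 1591 TPM to 518 and 414 TPM, log2 fold changes of -1.62 and -1.94. KRT14 (Entrez gene 3861), with which it normally pairs, was at 3.40 TPM in the control, rose to 8.43 TPM with RARγi-1, a log2 fold change of 1.10, and was at 3.40 TPM with RARγi-2. KRT5 mRNA was 468-fold above KRT14 mRNA in the PK-1 control, so little mRNA of the usual partner was measured. KRT15 (Entrez gene 3866), a type I keratin of basal cells and of the hair follicle bulge, was higher in PK-1, at 53.9 TPM in the control and 108 and 138 TPM with the inhibitors. Its log2 fold change was 0.98 with RARγi-1, just under 2-fold, and 1.34 with RARγi-2. In Panc-1 KRT15 fell from 15.1 TPM to 4.71 and 2.85 TPM, log2 fold changes of -1.50 and -2.07. It was the only member with opposite directions in the lines among those above the floor in both.

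Activation-associated keratins were higher in PK-1, where their sum was 561 TPM in the control, 1793 TPM under RARγi-1 and 1334 TPM under RARγi-2. The members contributed differently under each inhibitor. KRT16 (Entrez gene 3868), induced in wounded and hyperproliferative epidermis, rose from 3.37 TPM to 84.2 and 96.4 TPM, log2 fold changes of 4.29 and 4.48, the highest of any keratin. KRT17 (Entrez gene 3872) rose under RARγi-1 from 487 to 1585 TPM, a log2 fold change of 1.70, and was at 694 TPM with RARγi-2, a log2 fold change of 0.51. KRT6A (Entrez gene 3853) was at 67.1 TPM in the control and 118 TPM with RARγi-1, a log2 fold change of 0.81, and rose to 527 TPM with RARγi-2, a log2 fold change of 2.95. KRT6C and KRT6B were scarce. KRT6C was at 1.28, 1.91 and 9.04 TPM, and KRT6B at 2.79, 3.61 and 7.80 TPM. Under RARγi-2 both rose, by a log2 fold change of 2.14 for KRT6C and 1.22 for KRT6B. In Panc-1, KRT16 was the only member of this role detected. It was at the floor in the control and reached 2.65 TPM under RARγi-1 and 12.4 TPM under RARγi-2, so the increase was at least 2.65-fold and at least 12.4-fold on the TPM scale. With the pseudocount, the log2 fold changes were 0.87 and 2.74, and without it the first was 1.41.

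The copies KRT6A, KRT6B and KRT6C are hard to separate by short reads, and a stretch of their coding sequence is shown for this reason. Their coding sequences have the same length of 1692 bases. KRT6A was 97.5% identical to KRT6B and 97.9% identical to KRT6C, and KRT6B was 98.5% identical to KRT6C. The stretch covers coding bases 656 to 745 of the longest coding transcript in GENCODE 29, the window of 90 bases with the most differences, and capitals mark the 10 positions at which the copies differ.
KRT6A: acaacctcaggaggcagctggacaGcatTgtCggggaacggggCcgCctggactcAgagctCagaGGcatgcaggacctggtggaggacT
KRT6B: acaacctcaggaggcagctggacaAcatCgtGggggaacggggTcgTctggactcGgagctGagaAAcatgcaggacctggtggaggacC
KRT6C: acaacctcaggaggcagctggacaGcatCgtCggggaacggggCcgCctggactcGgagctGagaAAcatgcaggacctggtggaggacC
Of the stretches of 50 bases in the KRT6A transcript, 39.1% also occurred in transcripts of other genes, mostly of KRT6C. For KRT6C and KRT6B the shares were 53.6% and 47.1%. Each share was taken on the longest coding transcript of the gene, and its other transcripts were not examined. How the authors' counting treated reads that match several copies is not given, so the low values of KRT6B and KRT6C beside the high value of KRT6A are uncertain. The same holds to a lesser degree for KRT18, with 28.9% of its stretches shared, KRT14 with 23.8%, KRT16 with 22.0% and KRT17 with 16.0%. For KRT86, detected only in the Panc-1 control at 1.08 TPM, the share was 40.5%, mostly with KRT81, so its detection is uncertain too. KRT16 and KRT17 share stretches with their pseudogenes, and KRT14 with KRT16. For KRT13, KRT19, KRT7 and KRT8 the share was 1.88% or less, and KRT10, KRT4 and KRT23 shared none. All 151 keratin pseudogene entries, 51 of KRT8 and 69 of KRT18 among them, were at the floor in every library.

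Among the remaining members, KRT10 and KRT80 went the same way in both lines. KRT10 (Entrez gene 3858), the type I keratin of the upper epidermis, was higher in all 4 comparisons. In PK-1 it was at 34.2 TPM in the control and 66.6 and 83.4 TPM with the inhibitors, log2 fold changes of 0.94 and 1.26. In Panc-1 it was at 29.9, 51.3 and 68.6 TPM, log2 fold changes of 0.76 and 1.17. It thus stayed under 2-fold with RARγi-1 in both lines. KRT80 (Entrez gene 144501), a type II keratin linked to differentiation and to desmosomes, fell in all 4. In PK-1 it went from 214 TPM to 90.3 and 93.5 TPM, log2 fold changes of -1.23 and -1.18. In Panc-1 it was at 20.7 TPM in the control, 1.52 TPM under RARγi-1 and the floor under RARγi-2. Its log2 fold changes there were -3.11 and, as a limit, -3.44.

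Partners were set side by side, since filaments need both types. KRT8 over KRT18 was 0.93, 0.83 and 0.87 in the control, RARγi-1 and RARγi-2 libraries of PK-1, and 1.03, 0.76 and 0.75 in those of Panc-1, so that this pair kept close levels while its sum fell in Panc-1. KRT7 over KRT19 was 1.53 in the PK-1 control and 0.67 and 0.93 with the inhibitors. In Panc-1 KRT19 had no matching amount of KRT7, which was 347-fold lower in the control. KRT6A over KRT16 was 19.9 in the PK-1 control, 1.40 with RARγi-1 and 5.47 with RARγi-2. KRT17 exceeded KRT6B, with which it was paired on the list, by 175-fold in the PK-1 control.

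Keratin genes stand in clusters, and positions are given on the RefSeq build GRCh38.p14. The labels name hg38 without a patch release. The 27 keratins on chromosome 12 lie between bases 52168996 and 52952906, and 11 of them were detected. These are the type II genes and KRT18. The 28 on chromosome 17 lie between 40654665 and 41624575, and 9 were detected. Some neighbours moved in opposite directions. KRT13, KRT15 and KRT19 follow each other on chromosome 17 with gaps of 8132 and 4726 bases, and in PK-1 with RARγi-2 their log2 fold changes were -3.27, 1.34 and -0.49. KRT16 and KRT17, 6674 bases apart, both rose with RARγi-1 in PK-1. KRT13 itself lies at 41500981 to 41505612, KRT16 at 41609778 to 41612767 and KRT17 at 41619442 to 41624575. On chromosome 12, KRT6A and KRT5 are 21317 bases apart and went in opposite directions in PK-1. KRT8, at 52897191 to 52949860, and KRT18, at 52948855 to 52952906, are the end of that cluster. Their RefSeq spans overlap by 1006 bases, and the span of KRT81 lies wholly within that of KRT86. Whole spans were compared and exons were not, so whether the overlaps hold exon bases was not examined. The libraries were made with a strand-specific kit, but whether the counting used strand is not given. How reads of the overlapping spans were assigned is therefore unknown.

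**Figure D4:**
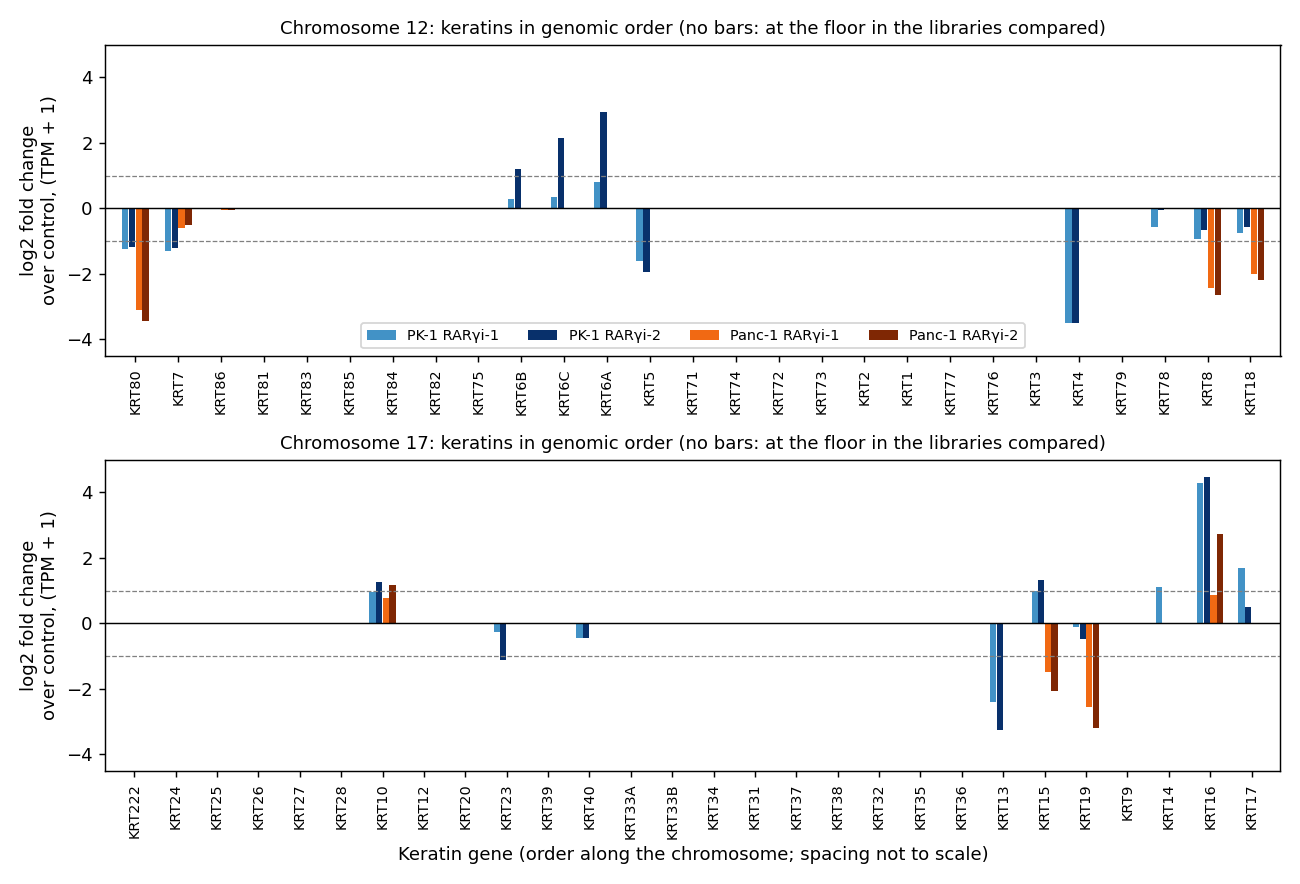
Log2 fold change of (TPM + 1) over the control of the line for all 55 keratins in their order along chromosome 12 (top) and chromosome 17 (bottom), with spacing not to scale, 4 bars per gene for the 4 comparisons and dashed lines at 2-fold; genes without bars were at the floor in the libraries compared. In PK-1, bars of KRT6A point up next to those of KRT5, which point down, and bars of KRT13 point down next to those of KRT15, which point up for PK-1 but down for Panc-1.

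Promoter sequence from RefSeq (GRCh38.p14) was at hand for 5 of the 20 detected members. The 250 bases before the start of KRT4, KRT5 and KRT10 are shown, because KRT4 and KRT5 fell in PK-1 with both inhibitors whereas KRT10 was higher in all 4 comparisons. All read 5′ to 3′ on the minus strand, and capitals mark the motifs that were found. Both strands were searched for the letters TATAAA, the box that sets the start of many genes. The letters AGGTCA are a common building block of retinoic acid receptor elements. A further form of this building block reads AGTTCA and was searched as well. An AP-1 site was searched for with the letters TGACTCA. None of the matches in the sequences shown overlapped another.
KRT4, chr12:52814117-52814366: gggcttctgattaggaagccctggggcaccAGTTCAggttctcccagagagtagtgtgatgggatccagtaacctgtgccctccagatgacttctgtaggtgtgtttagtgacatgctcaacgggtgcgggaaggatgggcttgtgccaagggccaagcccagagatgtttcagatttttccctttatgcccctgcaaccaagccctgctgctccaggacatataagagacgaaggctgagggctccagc
KRT5, chr12:52520395-52520644: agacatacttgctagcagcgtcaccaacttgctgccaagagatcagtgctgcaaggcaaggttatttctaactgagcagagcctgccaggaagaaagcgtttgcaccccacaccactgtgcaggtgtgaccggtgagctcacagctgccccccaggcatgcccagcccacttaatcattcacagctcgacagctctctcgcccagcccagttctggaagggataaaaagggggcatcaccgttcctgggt
KRT10, chr17:40822615-40822864: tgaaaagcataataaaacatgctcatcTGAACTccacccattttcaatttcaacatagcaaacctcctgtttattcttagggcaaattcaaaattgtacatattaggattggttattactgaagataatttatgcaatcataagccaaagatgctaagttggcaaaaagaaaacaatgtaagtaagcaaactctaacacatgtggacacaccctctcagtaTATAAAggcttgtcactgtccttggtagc
KRT10 held TATAAA at position -29 from the start and AGTTCA on the opposite strand at position -223. KRT4 held AGTTCA on the given strand at position -220. KRT5 held none of the 4 motifs. KRT8 and KRT40, the other detected members with an entry, are not shown. KRT8 held none of the 4 either, and KRT40 held AGTTCA and TATAAA before different start sites. Among 35116 promoters of the same length, TATAAA occurred in 10.7% and AGGTCA in 12.1%. The share was 8.80% for AGTTCA and 4.20% for TGACTCA. These matches are a description of the letters, and binding was not measured.

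Genes that work with keratins were followed by lists. Of 16 other intermediate filament genes, 9 were tested in each treated comparison, and 3 rose and 2 fell in PK-1 with RARγi-1, 3 rose and 3 fell with RARγi-2, and in Panc-1 1 rose and 4 fell with RARγi-1 and 1 rose and 5 fell with RARγi-2. Over all entries, as above, 9.25% rose and 4.96% fell in PK-1 with RARγi-1, 12.1% and 12.6% with RARγi-2, and in Panc-1 7.4% and 6.03% with RARγi-1 and 8.5% and 11.2% with RARγi-2. VIM, which encodes vimentin, the intermediate filament protein of mesenchymal cells, was at 41.7 TPM in the PK-1 control and rose to 92.1 and 140.0 TPM. In Panc-1 it was at 6291 TPM in the control and 4049 and 3962 TPM with the inhibitors. VIM was above every keratin in the Panc-1 control, and in the PK-1 control it was below KRT15 and the more abundant keratins. LMNA, which encodes lamins A and C of the nuclear lamina, fell in Panc-1 from 515 TPM to 191 and 213 TPM, and LMNB2, another lamin gene, fell in PK-1 from 108 TPM to 40.7 and 22.1 TPM. LMNB2 in Panc-1 was at 161 TPM in the control, 82.7 TPM under RARγi-1, which is under 2-fold, and 53.8 TPM under RARγi-2, a log2 fold change of -1.56. NES, which encodes nestin, fell in Panc-1 from 245 TPM to 77.8 and 45.7 TPM.

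Desmosomes anchor keratin filaments at the cell border, and plakins link filaments to them. Of 21 such genes, 18 were tested in PK-1, where 2 rose and 1 fell with RARγi-1 and 2 rose and 2 fell with RARγi-2. In Panc-1, 12 were tested, of which 4 fell with RARγi-1 and 7 with RARγi-2, against 6.03% and 11.2% of all entries, and none rose. The PK-1 counts were near the shares of all entries, of which 9.25% and 12.1% rose and 4.96% and 12.6% fell. JUP, which encodes plakoglobin, was at 393 TPM in the PK-1 control and 675 and 695 TPM with the inhibitors, and fell in Panc-1 from 91.5 TPM to 16.2 and 11.8 TPM. PLEC, which encodes the linker plectin, rose in PK-1 from 163 TPM to 336 and 440.2 TPM and was lower in Panc-1 by less than 2-fold, with log2 fold changes of -0.80 and -0.97. PPL, which encodes periplakin, was at 162 TPM in the PK-1 control and 264 and 289 TPM with the inhibitors. It fell in Panc-1 from 8.71 TPM to 1.52 TPM and to the floor. PERP, which encodes a desmosome protein of the membrane, fell in Panc-1 from 272 TPM to 66.1 and 56.3 TPM, and was within the spread in PK-1. For PK-1 the median log2 fold changes of the list were 0.18 and 0.04, and for Panc-1 -0.73 and -1.08.

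Squamous and cornified envelope genes were found mostly in PK-1. Of 23 listed, 10 were tested with RARγi-1, of which 4 rose and 1 fell, and 11 with RARγi-2, of which 5 rose and 1 fell, against 9.25% and 12.1% of all entries that rose and 4.96% and 12.6% that fell. SPRR1B, which encodes a small proline-rich protein of the envelope, rose from 183 TPM to 789 and 794 TPM, and CSTA, which encodes cystatin A, from 168 TPM to 496 and 482 TPM. SPRR1A rose from 4.30 TPM to 14.6 and 17.1 TPM, while IVL, which encodes involucrin, fell from 25.6 TPM to 7.48 and 3.46 TPM. Of the listed genes, 3 and 4 were tested in Panc-1, CSTA rose with both inhibitors from the floor to 3.06 and 3.83 TPM, and CNFN fell with RARγi-2 from 5.04 to 1.71 TPM. Of 16 epithelial transcription factor genes, 3 of 15 rose and 1 fell in PK-1 with RARγi-1, and 6 of 14 rose and none fell with RARγi-2. In Panc-1, 2 of 8 rose and 2 fell with RARγi-1, and 1 of 7 rose and 2 fell with RARγi-2. Among all entries of PK-1, 9.25% and 12.1% rose and 4.96% and 12.6% fell. Among those of Panc-1, 7.4% and 8.5% rose and 6.03% and 11.2% fell. KLF4, a factor of differentiating squamous epithelium, rose in all 4, with levels of 33.8, 158 and 173 TPM in PK-1 and of 2.87, 7.84 and 11.8 TPM in Panc-1. ESRP1, an epithelial splicing regulator, rose in PK-1 from 107 TPM to 218 and 304 TPM and was at the floor in Panc-1. ELF3, an epithelial factor of the ETS family, stood at 92.6 TPM in the PK-1 control, fell to 45.7 TPM with RARγi-1 and rose to 194 TPM with RARγi-2. The decrease was just past 2-fold, and the increase was a log2 fold change of 1.06. In Panc-1 ELF3 was at the floor. TFAP2A fell in Panc-1 from 39.5 TPM to 11.5 and 8.44 TPM.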

How the data were processed

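RNA was extracted from PK-1 and Panc-1 cells with Trizol, and mRNA libraries were made with a stranded kit, as the labels state. The authors deposited log2 TPM per entry, with all values under 1 TPM raised to 1 TPM. Their processing notes name build hg38, and the aligner, the counting method and the annotation are not given in the sources used here. The floor hides changes under 1 TPM, and TPM gives each library the same total, so levels are relative. Values were turned into TPM and compared as log2 (TPM + 1), with more than 2-fold as the threshold. Fold changes counted entries at the floor as 1 TPM and sums as 0. The members and gene lists were chosen with earlier results of these data known. Keratins with at least 10 TPM in a library were named with all values, and list genes were named where they passed 2-fold in either direction with both inhibitors of a line, at most 4 a list by mean TPM. LMNB1, PRPH, CNFN, CD68, PRSS1, CDH1 and ST14 were named after their values were seen. For the spread, the median absolute deviation of the log2 difference between the inhibitors was multiplied by 1.4826. Alternatives were no pseudocount, 0.1 TPM, median ratio rescaling, a minimum of 5 TPM and a threshold of 3-fold. Python 3.11.15, pandas 2.3.3 and NumPy 2.4.6 were used. Sequences came from RefSeq, GENCODE 29 and the primer list of the study.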

Additional observations from a re-analysis of the deposited data

Results flagged for a closer look

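KRT15 was singled out because it had opposite signs in PK-1 and Panc-1 under either inhibitor. In PK-1 its log2 fold changes were 0.98 with RARγi-1 and 1.34 with RARγi-2, and in Panc-1 they were -1.50 with RARγi-1 and -2.07 with RARγi-2. The difference between the lines was not tested, because each condition has 1 library and the comparisons within a line share their control.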

How the results depend on the processing

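No paired analysis was possible because each comparison lies within a line, where each condition has 1 library. A fit of treatment with the line as a block, which would take the lines as replicates, was not run. The size of the fold decides how many keratins count as changed. Past 3-fold, 2 were higher and 3 lower in PK-1 with RARγi-1, and 3 were higher and 3 lower with RARγi-2. In Panc-1, none was higher and 4 were lower with RARγi-1, and 1 was higher and 5 lower with RARγi-2. Shares of all entries past 3-fold were not computed. Without a pseudocount and with one of 0.1 TPM, 1 keratin (KRT16) was higher in Panc-1 with RARγi-1, where none was with 1 TPM. The median log2 fold change in Panc-1 with RARγi-1 was -1.99 with a minimum of 5 TPM. The median of the Panc-1 over the PK-1 control was -1.76 without a pseudocount, -1.66 with 0.1 TPM and -3.51 with a minimum of 5 TPM. Of the counts, medians and sums, 72 stayed within 1.5 times the reported count or within the spread, and 10 did not. Of the 58 log2 fold changes of named keratins, 14 moved by more than the spread without a pseudocount and 13 with 0.1 TPM, all to larger sizes, for example KRT80 in Panc-1 with RARγi-1 to -3.77, KRT15 in Panc-1 with RARγi-2 to -2.41 and KRT16 in Panc-1 with RARγi-2 to 3.63 without one. None changed sign, and rescaling moved none past the spread. Without replicates and read numbers, no counting error or replicate error can be given.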
